A study of Mus musculus with 5 samples.

Results

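The genes described here are 54 genes of late G2 phase and mitosis, measured in mouse glioma and normal brain. They were taken from a list of gene symbols, and their probes were found through the RefSeq accession that the scanner files give for each probe. All 54 were matched, among 21149 genes that the array named in this way, and all 54 were among the 16888 genes tested.

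Total RNA of 3 gliomas and of 2 normal brain samples was hybridised to single-colour Agilent SurePrint G3 Mouse arrays, 1 array for each sample. The gliomas were brain tumours of a MADM-based mouse model at postnatal day 150, and the normal brain samples had the same age. MADM, mosaic analysis with double markers, is a genetic method that makes a few mutant cells and their wild-type sister cells in one animal and labels them with different colours. The labels name neither the mutated genes, nor the Cre driver, nor the strain, and they do not say whether each sample is a different animal, and every p-value here reflects sample-to-sample spread that may be technical.

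Progress through G2 phase into mitosis is driven by Cdk1 bound to its cyclins, by Aurora and Polo-like kinases, and by the Foxm1 and MuvB transcription complexes that turn many of these genes on together late in the cell cycle. The spindle checkpoint then holds chromosome separation back until the kinetochores are attached, after which the anaphase-promoting complex marks securin and the cyclins for destruction. Most neurons and mature glia of an adult brain have left the cell cycle, and cycling cells are few, so RNA of these genes is commonly read as a sign of dividing cells. In bulk RNA, fewer cycling cells and less RNA per cell cannot be told apart.

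Most of the mitotic genes were higher in glioma. By limma with Benjamini-Hochberg adjustment over all genes tested, 50 of the 54 were higher (adjusted p under 0.05), against 23.6% of all genes tested, and 1 was lower, against 27.8% of all genes. Not called were 3 genes, Bub3, Incenp and Knstrn. The median difference over the 54 was 4.41 on the log2 scale, glioma minus normal brain, against -0.05 over all genes tested. With lower bounds used where a gene was not measurable in normal brain, 47 of those called were at least 4-fold higher, against 6.14% of all genes, and 26 at least 16-fold higher. Levels in the 3 gliomas lay above both normal brain levels for 51 members, against 35.2% of all genes, and below both for 1 member, against 38.8%.

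Detection on the normal brain arrays limits the size of many of these differences. All 54 members were well above background, the scanner software's flag for a measured spot, on all 3 glioma arrays. On normal brain 34 were well above background on both arrays, 7 on 1 array and 13 on neither, which are called undetected there. A gene detected on every glioma array and on no normal brain array was found for 3.3% of all genes. Such detection fixed the direction of the 13, which are among the 50 called higher and the 51 above both normal brain levels. For the 13, the fold has only a lower bound, set against the lowest signal well above background on each normal brain array or the gene's measured signal if that was higher, and the bounds ran between 2.66-fold and 77.9-fold. With these bounds in place of the fitted values the median difference was 3.95. Over the 34 members detected on all 5 arrays it was 3.90, and 30 of them were higher in glioma, against 22.6% of the 15457 genes detected on both normal brain arrays, and 31.2% of those genes were lower. Replicate brain samples differed little for these 34: normal brain 2 minus normal brain 1 had a median absolute size of 0.145 on the log2 scale and ran between -0.58 and 0.73. For the members not detected on both normal brain arrays it ran wider, between -1.28 for Cenpf and 2.31 for Kif11. The plot of levels by array shows all 54 genes.

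**Figure D1:**
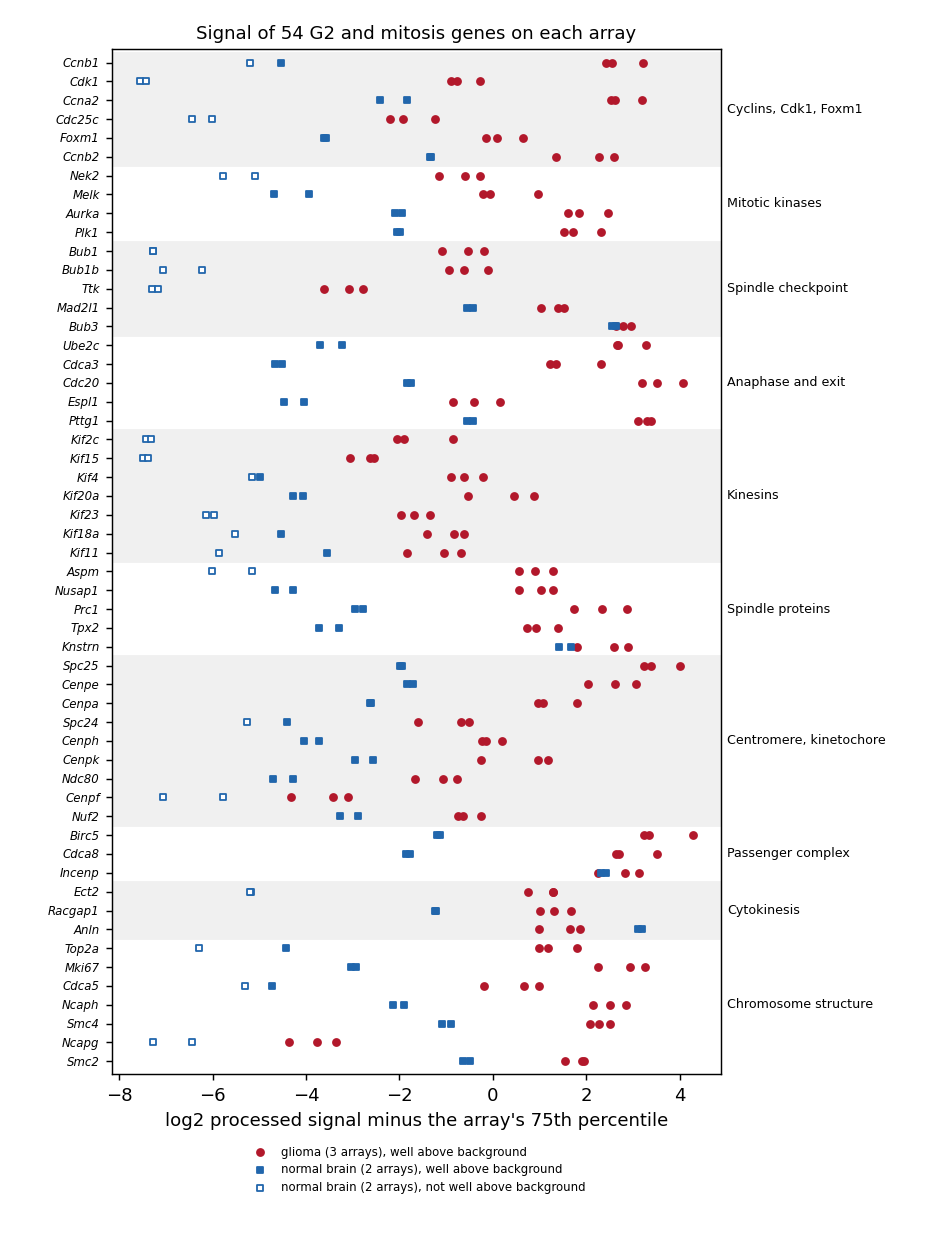
Level of each of the 54 members on each array, as the log2 of its processed signal relative to the 75th percentile of that array, with 1 point per array, genes grouped by role, and open symbols where the probe was not well above background. The levels of 51 members in all 3 gliomas lie above both normal brain levels, and Anln lies below both. Of the 51, 13 were undetected in normal brain, which fixed their direction.

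The arrays and the tissues were checked with values of the whole series. Gliomas 1, 2 and 3 had 65.9%, 70.3% and 68.5% of their spots flagged as well above background, against 64.0% and 61.5% in normal brain 1 and 2, and no spot was saturated. Across 14858 genes detected on all arrays, the correlation of levels was 0.974 to 0.982 between gliomas, 0.996 between normal brain samples and 0.857 to 0.874 between the groups. All arrays shared 1 slide and 1 scan, with the gliomas in a row and the normal brain samples in another, so slide row and group cannot be told apart. Of all genes tested, 3994 (23.6%) were higher and 4693 (27.8%) lower in glioma, the background for the marker counts below. Leaving out normal brain 1 left 2004 higher and 2624 lower, and leaving out normal brain 2 left 1973 and 2677, with 1 normal brain sample then assumed to vary like the gliomas. Without scaling between arrays, 63.7% of the calls were higher, against 45.98% with it, and the median over all genes was 0.31. Of the 10 neuronal markers all were lower in glioma, with summed levels of 76.98, 54.9 and 80.9 in gliomas 1 to 3 against 534 and 533 in normal brain, as multiples of the array's 75th percentile. All 10 markers of oligodendrocyte progenitors were higher in glioma, summing to 355, 347 and 401 in the gliomas against 39.1 and 38.5 in normal brain, and so were 9 of 10 markers of neural progenitors. Lower in glioma were 4 of 10 astrocyte, 9 of 10 endothelial, 8 of 9 ependymal and 4 of 5 erythroid markers, against 27.8% of all genes. The astrocyte count was the nearest to that share. Of 10 microglia and macrophage markers, 5 were higher, against 23.6% of all genes, and 1 was lower. Of 10 lymphocyte markers, 4 were well above background on all gliomas. The share of these cell types in the differences of the mitotic genes was not tested. Xist, which marks an inactive X chromosome, was well above background only on glioma 3.

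The promoters of these genes are shown because late cell cycle genes are known to carry a pair of short elements near the start of transcription. Those are the CCAAT box, bound by NF-Y, and the CHR, bound by MuvB complexes. Windows covering 250 bases before and 50 after the gene start were taken from RefSeq on build GRCm38.p6, and 46 of the 54 members had one. Below are windows of 6 role groups, each of the gene with the largest fitted difference among those detected on all 5 arrays or on no normal brain array, which leaves out Ccnb1 and Top2a, detected on 1 normal brain array. The window of Anln was also taken, after its values were seen, because it was the member lower in glioma. They are printed 5′ to 3′ on the strand of the gene, and capitals mark CCAAT or its complement ATTGG and the CHR hexamers TTTGAA and TTCGAA or the complement TTCAAA. Their positions are chr10:69352863-69353162 (minus strand) for Cdk1, chr2:127831810-127832109 (minus) for Bub1, chr1:139454523-139454822 (plus) for Aspm, chr2:164769679-164769978 (plus) for Ube2c, chr3:27153829-27154128 (minus) for Ect2, chr7:135716330-135716629 (minus) for Mki67 and chr9:22389157-22389456 (minus) for Anln.
Cdk1: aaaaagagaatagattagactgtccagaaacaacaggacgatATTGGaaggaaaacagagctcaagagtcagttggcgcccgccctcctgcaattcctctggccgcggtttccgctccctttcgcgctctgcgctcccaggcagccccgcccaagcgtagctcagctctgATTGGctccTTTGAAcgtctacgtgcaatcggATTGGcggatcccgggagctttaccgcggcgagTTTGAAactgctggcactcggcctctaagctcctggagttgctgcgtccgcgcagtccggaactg
Bub1: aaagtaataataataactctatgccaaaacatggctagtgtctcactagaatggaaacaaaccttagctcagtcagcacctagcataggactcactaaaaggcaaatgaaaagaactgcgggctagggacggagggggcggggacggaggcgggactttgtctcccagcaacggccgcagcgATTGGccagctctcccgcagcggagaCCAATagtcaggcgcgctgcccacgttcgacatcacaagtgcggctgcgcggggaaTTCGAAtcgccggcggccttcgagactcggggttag
Aspm: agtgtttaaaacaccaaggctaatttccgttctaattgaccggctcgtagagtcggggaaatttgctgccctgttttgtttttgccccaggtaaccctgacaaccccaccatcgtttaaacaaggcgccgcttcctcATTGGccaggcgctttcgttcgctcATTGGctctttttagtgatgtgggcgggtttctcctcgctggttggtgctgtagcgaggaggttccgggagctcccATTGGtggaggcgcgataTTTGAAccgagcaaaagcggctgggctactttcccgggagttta
Ube2c: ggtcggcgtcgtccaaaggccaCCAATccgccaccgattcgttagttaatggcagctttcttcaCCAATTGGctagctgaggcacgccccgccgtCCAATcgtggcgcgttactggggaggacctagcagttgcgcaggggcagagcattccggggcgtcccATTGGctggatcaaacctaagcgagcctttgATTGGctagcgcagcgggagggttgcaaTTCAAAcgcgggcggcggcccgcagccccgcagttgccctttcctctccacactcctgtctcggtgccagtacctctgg
Ect2: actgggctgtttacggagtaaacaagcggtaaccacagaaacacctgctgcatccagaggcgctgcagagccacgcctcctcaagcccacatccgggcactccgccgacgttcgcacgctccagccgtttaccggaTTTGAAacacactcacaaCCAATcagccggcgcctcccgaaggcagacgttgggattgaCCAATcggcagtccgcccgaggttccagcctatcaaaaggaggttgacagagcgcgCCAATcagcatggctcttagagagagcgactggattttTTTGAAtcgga
Mki67: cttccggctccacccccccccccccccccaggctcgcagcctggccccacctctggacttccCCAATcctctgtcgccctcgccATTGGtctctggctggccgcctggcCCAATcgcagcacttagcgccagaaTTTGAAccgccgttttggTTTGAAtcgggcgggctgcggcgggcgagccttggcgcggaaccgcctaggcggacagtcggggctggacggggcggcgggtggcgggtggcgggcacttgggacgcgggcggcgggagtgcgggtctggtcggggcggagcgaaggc
Anln: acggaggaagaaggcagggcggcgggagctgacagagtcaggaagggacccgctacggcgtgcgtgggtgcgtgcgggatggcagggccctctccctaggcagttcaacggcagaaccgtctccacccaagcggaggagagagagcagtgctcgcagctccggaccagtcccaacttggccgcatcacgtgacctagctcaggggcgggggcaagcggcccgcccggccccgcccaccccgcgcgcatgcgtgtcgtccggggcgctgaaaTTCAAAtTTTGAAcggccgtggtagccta

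Counted on both strands, with overlapping matches counted, CCAAT stood in 32 of the 46 windows (69.6%), against 37.9% of the windows of 27025 genes and 38.2% of those of the genes tested. At least 2 copies stood in 20 (43.5%), against 12.2% of all windows. A CHR, TTTGAA or TTCGAA, stood in 32 as well (69.6%), against 19.4% of all windows and 14.5% of those of tested genes. Both elements stood in 27 windows (58.7%), against 7.70% of all windows and 6.04% of those of tested genes. The positions were clustered: 30 windows (65.2%) held a CHR at or after base -50, against 5.29% of all windows, and 29 (63.0%) held CCAAT within 150 bases before the start, against 25.6%, 2 ranges chosen after the positions were seen. Counting from 1 at the gene start, in Cdk1 the CCAAT boxes began at -208, -80 and -48 and the CHR hexamers at -71 and -15. Bub1 had CCAAT at -68 and -42 and a CHR at 15, and Ccnb1 had CCAAT at -99 and -67 and no CHR. A forkhead-type TGTTTAC stood in 2 windows (4.35%), against 3.55% of all windows. E2F-type sites (TTTCCCGC, TTTGGCGC, TTTCGCGC or TTTGCCGC) stood in 4 (8.70%), against 2.32%.

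The median fitted difference was 4.49 for the 27 genes with both elements and 4.35 for the other 19, some of which hold one of them. It was 4.59 for the 32 genes with a CHR and 4.20 for the 14 without, and no test was made. Bub3, which did not pass the test, had CCAAT at -74 and -32 and a CHR at -43. Anln, lower in glioma, had 2 CHR hexamers and no CCAAT. A match is a description of the letters in the window and shows no binding.

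**Figure D2:**
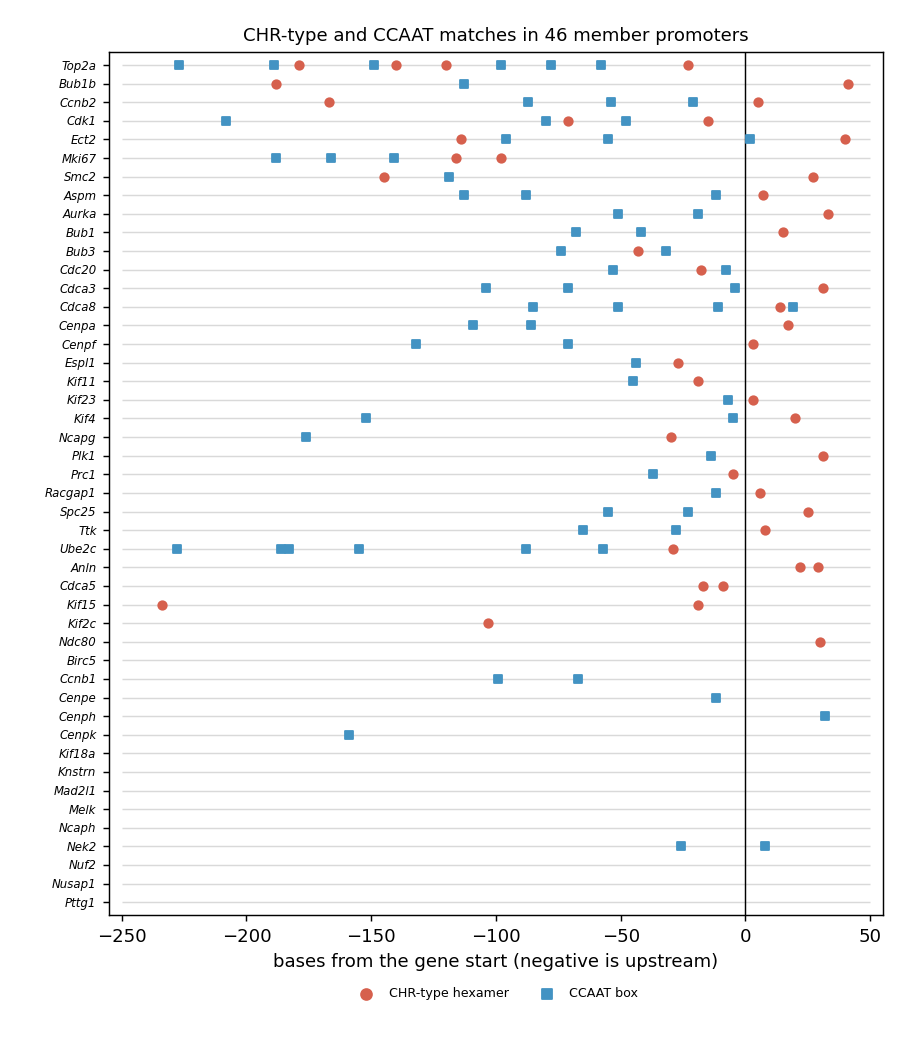
Positions of CCAAT and CHR matches relative to the gene start (in bases) in the promoter windows of 46 members, 1 line per gene. In 30 windows a CHR lies at or after -50, and in 29 a CCAAT box lies within 150 bases before the start.

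The 6 genes that set the timing of entry into mitosis were all higher in glioma. The 3 detected on both normal brain arrays differed by 3.40 to 4.90 on the log2 scale. Cdk1, the kinase that drives entry into mitosis, had log2 levels of -0.90, -0.28 and -0.78 in gliomas 1 to 3, against -7.55 and -7.43 in normal brain 1 and 2, where it was not well above background. It was at least 24.0-fold higher (limma, adjusted p = 0.000331), and the groups were far apart. Ccnb1, cyclin B1, the partner of Cdk1 in mitosis, stood at 2.55, 3.22 and 2.42 in the gliomas, against -5.21 and -4.54 in normal brain. Only normal brain 2 was well above background for it, and the fitted difference was 7.60 ± 0.33 (SE), 194-fold (limma, adjusted p = 0.000365). The size depended on the processing: it was 5.60 with normexp background correction and 6.23 with the mean of detected probes. Ccna2, cyclin A2, which acts in S phase and G2, was at 2.60, 3.19 and 2.52 in the gliomas, against -1.84 and -2.42 in normal brain, a difference of 4.90 ± 0.30 (29.8-fold, adjusted p = 0.000473). The other members were cyclin B2 (Ccnb2), the phosphatase Cdc25c, which removes the inhibitory phosphates of Cdk1, and the transcription factor Foxm1. Their differences were 3.40 ± 0.39 for Ccnb2, 3.79 ± 0.26 for Foxm1, and at least 10.9-fold for Cdc25c, which was undetected in normal brain.

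All 4 mitotic kinases were higher, and the 3 detected on all arrays differed by 3.87 to 4.54 on the log2 scale. Nek2, a kinase of centrosome separation, had log2 levels of -0.59, -0.27 and -1.16 in the gliomas, against -5.78 and -5.08 in normal brain, where it was not well above background, and was at least 22.9-fold higher (limma, adjusted p = 0.000629). Melk, a kinase of the AMPK family, stood at -0.21, 0.97 and -0.06 in the gliomas, against -4.68 and -3.94 in normal brain, a difference of 4.54 ± 0.44 (23.3-fold, adjusted p = 0.00118). For both, every glioma was above both brain samples, and glioma 2 was the highest. Aurka, the Aurora kinase of spindle poles, differed by 3.99 ± 0.28 and Plk1, the Polo-like kinase of centrosomes and kinetochores, by 3.87 ± 0.27.

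Of the 5 spindle checkpoint genes, 4 were higher and Bub3 did not pass. Bub1, a kinetochore kinase of the checkpoint, had log2 levels of -1.09, -0.19 and -0.53 in gliomas, against -7.28 on both normal brain arrays. It was undetected in normal brain and at least 24.9-fold higher in glioma (limma, adjusted p = 0.000365). Bub1b, which encodes the checkpoint protein BubR1, stood at -0.95, -0.11 and -0.61 in the gliomas, against -6.23 and -7.06 in normal brain, also undetected there, and was at least 25.7-fold higher (adjusted p = 0.000457). Bub3, which binds both Bub1 and BubR1, was at 2.96, 2.78 and 2.62 in the gliomas, against 2.64 and 2.54 in normal brain. Glioma 3 lay between the brain samples, and the difference of 0.20 ± 0.16 did not pass (adjusted p = 0.349). Mad2l1, Mad2 of the checkpoint, differed by 1.80 ± 0.20 and the checkpoint kinase Ttk by at least 4.23-fold.

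The 5 genes around the anaphase-promoting complex and separase were all higher, by 3.76 to 6.34. Ube2c, the ubiquitin-conjugating enzyme of the complex, had log2 levels of 2.67, 3.27 and 2.65 in gliomas, against -3.71 and -3.24 in normal brain, a difference of 6.34 ± 0.27 (80.8-fold, limma, adjusted p = 0.000365). Cdca3, a protein that promotes mitotic entry and is itself degraded through the complex, stood at 1.22, 2.31 and 1.35 in the gliomas, against -4.66 and -4.52 in normal brain, a difference of 6.21 ± 0.37 (74.1-fold, adjusted p = 0.000457). Both were well above background on all 5 arrays, so these folds are measured on both sides. Their size still depended on the background step: with normexp background correction the differences were 5.20 for Ube2c and 4.48 for Cdca3. Cdc20, the activator of the complex in mitosis, was 42.0-fold higher, separase (Espl1), the protease that cuts cohesin, 14.8-fold, and securin (Pttg1), its inhibitor, 13.5-fold.

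The 7 kinesins, the motor proteins of the spindle and midzone, were all higher. Kif20a alone was detected on both normal brain arrays, 3 were detected on 1 and 3 on neither. Kif2c, which takes microtubules apart at centromeres, had log2 levels of -1.90, -0.86 and -2.06 in gliomas, against -7.42 and -7.31 in normal brain, undetected there and at least 12.4-fold higher in glioma (limma, adjusted p = 0.000551). Kif15, which helps keep spindle poles apart, was at -3.07, -2.64 and -2.55 in the gliomas, against -7.50 and -7.38 in normal brain, also undetected there and at least 5.60-fold higher (adjusted p = 0.000365). Kif23, the kinesin of centralspindlin, was at least 11.9-fold higher. The least certain was Kif11, the motor that separates the poles, with -5.87 and -3.56 in the 2 normal brain samples and a fitted difference of 3.52 ± 0.75 (adjusted p = 0.0143). It was 2.36 without normal brain 1 and 4.67 without normal brain 2. Kif18a, Kif20a and Kif4, motors of chromosome alignment, cytokinesis and chromosome arms, differed by 4.06, 4.43 and 4.49, with Kif18a and Kif4 detected on 1 normal brain array.

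Of the 5 spindle proteins, 4 were higher and Knstrn did not pass. Aspm, a spindle pole protein whose human gene is mutated in microcephaly, had log2 levels of 0.55, 1.29 and 0.90 in the gliomas, against -6.00 and -5.15 in normal brain, undetected there and at least 70.4-fold higher (limma, adjusted p = 0.000403). Nusap1, a microtubule-bundling protein, stood at 0.56, 1.29 and 1.02 in the gliomas, against -4.28 and -4.66 in normal brain, a difference of 5.43 ± 0.27 (43.1-fold, adjusted p = 0.000397). Prc1, the bundler of the midzone, was 36.5-fold higher and Tpx2, the activator of Aurora A, 23.1-fold. Knstrn, a protein of spindle and kinetochores, was at 2.59, 2.88 and 1.80 in the gliomas, against 1.67 and 1.42 in normal brain. Every glioma was above both brain samples, but glioma 3 was close to them, and the difference of 0.88 ± 0.35 did not pass (adjusted p = 0.0887). Without glioma 3 it was 1.20 (limma, adjusted p = 0.00973), and with the mean of its detected probes 2.66 (adjusted p = 0.00462). A replicate block gave the same 1.20 (limma, adjusted p = 0.0231). No normal brain sample shares the replicate number of glioma 3, so the block also leaves glioma 3 out of the difference.

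All 9 centromere and kinetochore genes were higher, and the 7 detected on all arrays differed by 2.53 to 5.50. Spc25, of the Ndc80 complex that binds microtubules, had log2 levels of 3.23, 3.998 and 3.37 in gliomas, against -1.95 and -1.99 in normal brain, a difference of 5.50 ± 0.27 (45.2-fold, limma, adjusted p = 0.000389). Cenpe, a kinesin of the kinetochore, stood at 2.03, 3.05 and 2.61 in the gliomas, against -1.84 and -1.72 in normal brain, a difference of 4.35 ± 0.32 (20.3-fold, adjusted p = 0.000644). In both, every glioma exceeded both brain samples by several log2 units. The other subunits of the Ndc80 complex differed by 3.32 for Ndc80, 2.53 for Nuf2 and, detected on 1 normal brain array, 3.90 for Spc24. The centromeric histone Cenpa and the inner kinetochore proteins Cenph and Cenpk differed by 3.91, 3.81 and 3.39. Cenpf, a large kinetochore protein that builds up in G2, was at least 3.08-fold higher (fitted difference 2.79 ± 0.53, adjusted p = 0.00951), and its call was lost with normexp background correction (0.56, adjusted p = 0.0672) and with a replicate block (adjusted p = 0.0514). Its fitted difference was 3.43 without normal brain 1 and 2.15 without normal brain 2.

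In the chromosomal passenger complex, which corrects wrong attachments, 2 of 3 genes were higher. Birc5 (survivin) had log2 levels of 3.23, 4.28 and 3.33 in gliomas, against -1.21 and -1.14 in normal brain, a difference of 4.79 ± 0.35 (27.6-fold, limma, adjusted p = 0.000644). Cdca8 (borealin) stood at 2.63, 3.52 and 2.70 in the gliomas, against -1.87 and -1.78 in normal brain, a difference of 4.77 ± 0.31 (27.3-fold, adjusted p = 0.000522). These subunits had nearly equal differences. Incenp, the scaffold that holds the Aurora B kinase, was at 2.25, 3.12 and 2.83 in the gliomas, against 2.42 and 2.31 in normal brain. Glioma 1 lay below both brain samples and the difference of 0.37 ± 0.28 did not pass (adjusted p = 0.325), though without glioma 1 it did (0.61, adjusted p = 0.0444).

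The 3 cytokinesis genes moved in opposite directions. Ect2, the exchange factor that activates RhoA at the cleavage furrow, had log2 levels of 0.76, 1.27 and 1.28 in the gliomas, against -5.18 and -5.19 in normal brain, undetected there and at least 77.9-fold higher (limma, adjusted p = 0.000331). Racgap1, a protein of centralspindlin, stood at 1.00, 1.66 and 1.31 in the gliomas, against -1.22 and -1.24 in normal brain, a difference of 2.55 ± 0.23 (5.87-fold, limma, adjusted p = 0.000935). Anln, anillin, the scaffold of the contractile ring, was the only member lower in glioma, at 1.64, 1.87 and 0.98 in the gliomas, against 3.11 and 3.18 in normal brain. All 3 gliomas were below both brain samples. The difference was -1.65 ± 0.29 (3.14-fold lower, limma, adjusted p = 0.00779), and without normal brain 2 the call was lost (-1.61, adjusted p = 0.0541).

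Anillin is also known as a component of central nervous system myelin in mice, and most oligodendrocyte markers were lower in glioma as well. Of 10 such markers, 7 were lower in glioma, against 27.8% of all genes. The median difference of the 10 was -1.99, and 9 of them were well above background on all gliomas. Their summed levels were 127, 355 and 76.6 in gliomas 1 to 3, against 351 and 380 in normal brain. In glioma 2 the sum lay between those of the normal brain samples, whereas Anln there was 1.87 against 3.11 and 3.18. Among the gliomas, Anln and the marker sum were both highest in glioma 2 and lowest in glioma 3. This order is not particular to Anln: 51 of the 54 members were highest in glioma 2, and 23 were lowest in glioma 3. The part of oligodendrocytes in the Anln difference was not tested.

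All 7 genes of chromosome structure were higher, and the 4 detected on all arrays differed by 2.36 to 5.80. Mki67, which encodes the proliferation marker Ki-67, a coat protein of mitotic chromosomes, had log2 levels of 2.25, 3.26 and 2.92 in gliomas, against -3.05 and -2.92 in normal brain, a difference of 5.80 ± 0.32 (55.6-fold, limma, adjusted p = 0.00041). Top2a, the topoisomerase that untangles sister chromatids, was at 0.98, 1.80 and 1.18 in the gliomas, against -6.28 and -4.44 in normal brain, with normal brain 2 alone well above background and a fitted difference of 6.68 ± 0.59 (102-fold, adjusted p = 0.000944). It was 5.76 without normal brain 1, 7.60 without normal brain 2 and 4.43 with normexp background correction. Ncaph, a subunit of condensin, stood at 2.13, 2.84 and 2.51 in the gliomas, against -2.14 and -1.90 in normal brain, a difference of 4.52 ± 0.25 (22.9-fold, adjusted p = 0.000403). Gliomas 3 and 2 exceeded glioma 1 in all of them. The condensin subunits Smc2, Smc4 and Ncapg differed by 2.36 ± 0.18, 3.28 ± 0.19 and at least 2.66-fold. Cdca5 (sororin), which protects cohesion between sister chromatids, had a fitted difference of 5.50 ± 0.40, with 1 normal brain array detected.

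**Figure D3:**
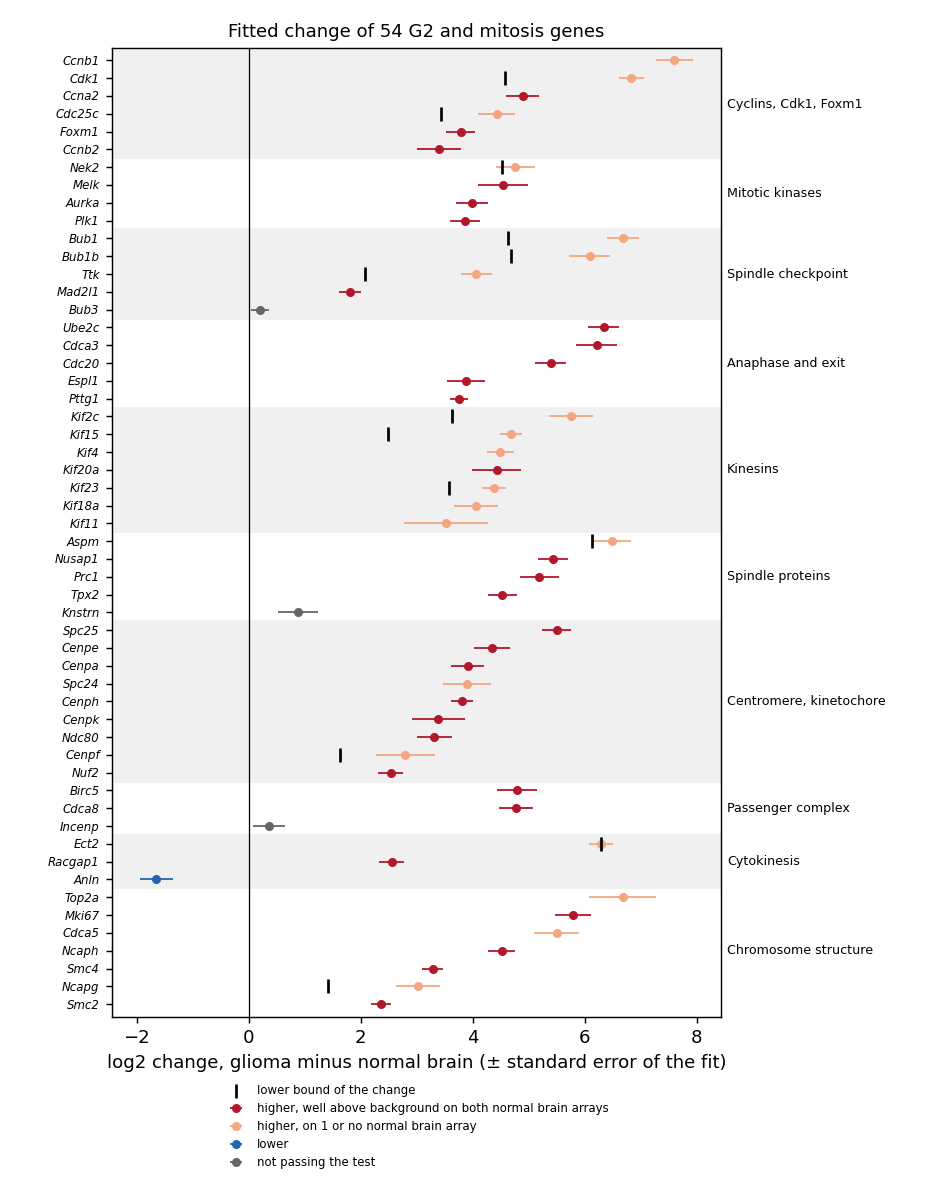
Fitted log2 difference, glioma minus normal brain, of each member with its SE, grouped by role, with a black tick at the lower bound of the 13 genes undetected in normal brain and paler points where normal brain was detected on 1 array or none. Of the 54 genes, 50 were called higher, Anln lower, and Bub3, Incenp and Knstrn were not called.

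For 16 members the array carried further probes, 20 in all, of which 19 were well above background on at least 2 arrays. All 19 were higher in glioma by mean level, and on 17 every glioma lay above both normal brain samples. No share over all probes was taken. Read from the brightest probe of each gene, 35.2% of all genes tested had every glioma above both. The further probes undetected in normal brain passed this filter through the gliomas alone, which fixed their direction. Where a probe was undetected in normal brain its difference has only a bound, and the dimmer the probe, the lower that bound can be. Ccnb1 was at least 14.0-fold and 12.8-fold higher on its further probes. Cdk1 was at least 24.0-fold higher on its brightest probe and at least 3.06-fold on the next, and its remaining probe was well above background on no array. For Mad2l1, measured on both sides, the brightest probe gave 1.80 and the others 0.76 and 0.48, and on the last of these glioma 3 lay below both normal brain samples. Tpx2 gave 4.53 and 2.67, and Nuf2 gave 2.53 and, on a probe undetected in normal brain, at least 4.13-fold. Knstrn gave 0.88 on its brightest probe and was at least 21.6-fold higher on the other, which had log2 levels of -0.87, 0.16 and -1.44 in the gliomas, against -5.14 and -5.16 in normal brain, undetected there. Incenp gave 0.37 and 0.36, with glioma 1 below both normal brain samples on each probe. Probe sequences and the exons they cover were not used here, so no transcript is assigned to a probe.

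**Figure D4:**
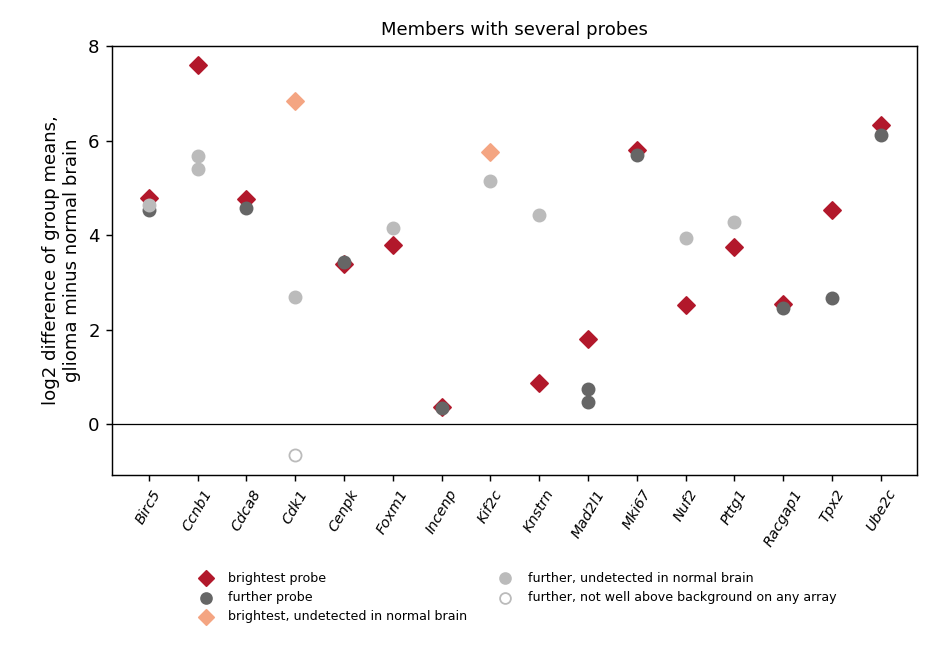
Log2 difference, glioma minus normal brain, of the brightest probe and of each further probe in the members with several probes, paler where normal brain was undetected, so that the point is a fitted value. Every detected further probe lies above 0, which detection through the gliomas alone fixed for the paler ones.

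The gliomas were ordered alike across the members. Glioma 2 had the highest level of 51 of the 54 (94.4%), against 27.6% of all genes tested. The exceptions were Bub3, highest in glioma 1 as were 37.3% of all genes, and Kif15 and Ect2, highest in glioma 3 as were 35.1% of all genes. Glioma 2 was the lowest for no member, whereas glioma 1 was lowest for 31 and glioma 3 for 23. Glioma 2 exceeded glioma 1 by a median of 0.67 on the log2 scale (interquartile range 0.42 to 0.89), against -0.03 over all genes. It exceeded glioma 3 by a median of 0.52 (interquartile range 0.33 to 0.84), against -0.00 over all genes. Each glioma is 1 array, so these differences have no replicate error. Bub1, printed in 10 spots, had a spot SD of 0.05, 0.04 and 0.05 on glioma arrays 1 to 3 and a gap of 0.89 between gliomas 2 and 1. Spot SD covers the print and scan only.

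Gliomas 1 and 3 were less clearly ordered. Glioma 3 exceeded glioma 1 for 31 of 54 members, with a median of 0.13, against 46.4% of all genes. The role groups differed here: glioma 3 was the higher of the pair for all 7 genes of chromosome structure and for 1 of the 6 genes of cyclin and Cdk1 control, counts that held under each of the 7 settings that kept all their members. These groups were compared after the values were seen, and no test was made. Across settings, glioma 2 remained the highest for 49 to 54 of 54 members when all were kept, against 24.4% to 55.2% of all genes. The 54 and the 55.2% came from the values without scaling. Marker sums did not all follow this order. Neural progenitor markers summed to 327, 383 and 325 in gliomas 1 to 3, against 25.01 and 27.6 in normal brain, highest in glioma 2. Sums of progenitor markers of the oligodendrocyte lineage were highest in glioma 3, and microglia and macrophage markers summed to 92.6, 171 and 77.9 in the gliomas, against 92.2 and 95.9 in normal brain. Their part in the order was not tested.

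**Figure D5:**
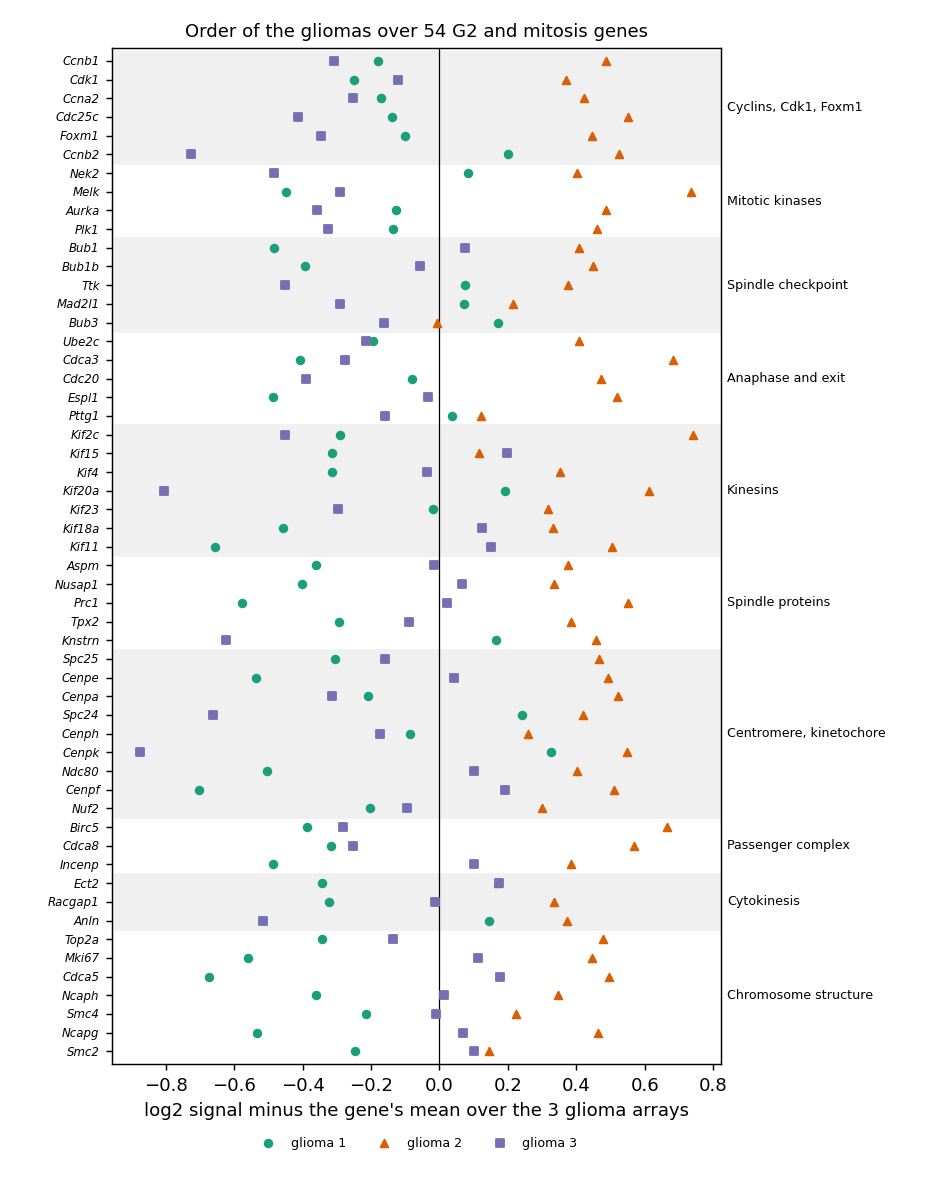
Log2 level of each member on each glioma array minus the gene's mean over the 3 gliomas, grouped by role, with 1 symbol per glioma. Glioma 2 had the highest level of 51 of 54 members, and glioma 3 exceeded glioma 1 for all 7 genes of chromosome structure.

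Further genes of mitosis, 65 that are no members, were looked at as well, in a list chosen with earlier results of these data known. Of the 62 tested, 55 were higher in glioma, against 23.6% of all genes, and 1 was lower, against 27.8%. The median fitted difference was 3.24, and 50 (80.6%) were highest in glioma 2, against 27.6% of all genes. Those undetected in normal brain passed the detection filter through the gliomas alone, which fixed their direction. Their fitted values entered the median in place of bounds, for Gtse1 6.20-fold against a bound of 1.39-fold. Well above background on both normal brain arrays were 39 of the 62, and calls were not counted for these alone. Ckap2l, a spindle pole protein, had log2 levels of -0.91, 0.11 and -1.48 in the gliomas, against -6.75 and -7.42 in normal brain, and was at least 22.3-fold higher (limma, adjusted p = 0.000778). Kif18b, a microtubule-depolymerising kinesin, was at least 18.7-fold higher and Ckap2, a spindle-associated protein, at least 26.2-fold, both undetected in normal brain. Larger bounds, seen afterwards, were those of Pimreg at 61.7-fold and Sgo1, the protector of centromeric cohesion, at 60.1-fold. Cit, citron kinase of the midbody, was the lower one, at -2.34, -1.92 and -1.88 in gliomas, against 0.63 and 0.16 in normal brain, a difference of -2.44 ± 0.23 (adjusted p = 0.00115). Neurons are known to make citron isoforms as well, and the neuronal marker sums above were lower in every glioma; their part in the Cit difference was not tested.

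Complexes that also serve outside mitosis were looked at beside these genes, with 23.6% of all genes higher as background. Of 15 core subunits of the anaphase-promoting complex, 4 were higher and 11 did not pass, with a median of 0.21, led by Anapc1 at 1.47, Cdc16 at 0.74 and Cdc26 at 0.62. Of 10 cohesin genes, 3 were higher, Stag2, Stag1 and Rad21, by 0.87, 0.75 and 0.68, 7 did not pass, and the median was 0.41. Among 10 regulators of Cdk1, 6 were higher and 4 lower, the latter against 27.8% of all genes. Those that rose most were Cks2 and Cks1b, the small Cdk-binding proteins, by 4.002 and 3.18, and Mastl. Cks2, Cks1b and Mastl were also in the list of further genes of mitosis above and were already counted there as higher. Their calls here are therefore not separate from that count. Mastl, the kinase that keeps the opposing phosphatase inactive, had a fitted difference of 2.99 ± 0.54, with 1 normal brain array detected. Lower were Arpp19 and Ensa, targets of Mastl, Wee1, the inhibitory kinase of Cdk1, and Ppp2r2d, a phosphatase subunit, with differences of -1.09, -0.48, -0.84 and -0.55. Of 11 genes of the DREAM and MuvB complexes, which hold the late cell cycle genes off or turn them on, 8 were higher and 3 did not pass, with a median of 1.38. The leading ones were Lin37, a MuvB subunit, by 4.08, the member Foxm1, and Rbl1, the pocket protein p107, by 3.55. Lin37 was highest in glioma 1, at 6.92, 6.46 and 5.81 in gliomas 1 to 3, unlike most members. Lin9 and Lin54 differed by 2.20 and 0.80, and Lin52, at 0.21, did not pass.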

How the data were processed

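Per the submitters' processing notes, the authors made the spot intensity values with Agilent Feature Extraction 10.7.3.1. Background was subtracted in that step, per the file headers. The 0 or 1 flags (well above background, saturated, outlier) come from the same deposited files. The deposited value table holds log2 values, checked to equal the log2 processed signal (the median of the differences was 0), and it served as the alternative without scaling between arrays.

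From the files, control spots were left out, spots of a probe were averaged, 23 probes with outlier flags were dropped, and each log2 processed signal was set relative to the 75th percentile of its array. For probes with several spots, well above background means on the majority of them. Of 29796 probes with a RefSeq accession, 28019 were named through the supplied list of accessions. Each gene was read from the probe brightest over the 5 arrays, and 16888 of 21149 genes were tested, those well above background on at least 2 arrays. Signal over background stands for depth: the lowest log2 value with that flag lay between -6.08 and -5.68 for the gliomas, against -5.30 and -5.18 for normal brain.

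The 3 gliomas were compared with the 2 normal brain samples with limma's two-sided moderated test (version 3.58.1, lmFit then eBayes), adjusted by Benjamini-Hochberg over all genes tested at 0.05, in R 4.3.3, with version 1.17.8 of data.table, Python 3.11.15, pandas 2.3.3, numpy 2.4.6 and matplotlib 3.10.9 for tables and figures. The fit was tested on simulated data. Precision is limited by having few arrays. Of the 15 alternatives, normexp used the median spot signal in place of the planned mean spot signal, which was not used here. Members and lists were chosen with earlier results of these data known. Values by array were given for the 2 members of each role group with the largest difference (detected on all arrays, or with a lower bound), for those with a difference under 1 or not called, and for Mki67, Top2a, Cdk1 and Ccnb1. Of other lists, the 3 largest fitted called differences each way were named. Ensa, Pimreg and Sgo1 were named after their values were seen. Replicate numbers are shared by gliomas and normal brain samples, but same-numbered samples did not deviate together (r = 0.038 for each pair), so they were not treated as paired.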

Additional observations from a re-analysis of the deposited data

How the results depend on the processing

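No member and no count of members turned its direction under the 15 alternatives. Over all genes, the calls without scaling were 5599 higher and 3184 lower, against 3994 and 4693 with it, so the majority turned. The median log2 difference of the members was 4.76 without scaling, 3.05 with normexp background correction and 3.90 with genes limited to those well above background on all 5 arrays or on both normal brain arrays. Those 2 filters kept 34 members, of which 30 were called higher and 33 were highest in glioma 2, fewer because fewer were tested. Normexp with an offset shrinks differences of dim probes by its construction. Leaving out 1 sample at a time gave medians of 4.14 to 4.54, with 50 to 51 members higher and 0 to 1 lower. The 0 came without normal brain 2, where 1 member was lower at an unadjusted p under 0.05 (limma). Over all genes, the same omissions gave 4628 to 9324 calls, 1973 to 4334 of them higher and 2624 to 4990 lower, with the smallest counts without a normal brain sample. With a replicate block, 8266 genes and 50 members higher were called and the median was 4.51. The shared replicate numbers do not pair the samples, so this is no test of pairing. No normal brain sample has replicate number 3, so the block leaves glioma 3 out of the fitted differences. Its estimates therefore repeat those of the omission of glioma 3. Of single members' values, 763 kept their call and 7 changed it, in Cenpf, Knstrn, Incenp and Anln, as given above. The cause was not tested.

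With 3 gliomas and 2 normal brain samples on 1 slide, the spread within normal brain rests on 1 difference, and differences between gliomas have no error. Signal near background limits 20 members in normal brain, for which the size of the fold is a bound or rests on 1 array.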
